A study of Mus musculus with 24 samples.

Results

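Adipocyte genes were followed in pieces of mouse distal lung, array by array. The set comprised 9 genes, Adipoq, Cfd, Plin1, Cidec, Retn, Lep, Ucp1, Lipe and Pck1, and every probe that the chip annotation assigns to one of these symbols was taken. This gave 12 probes of 8 genes, out of 45281 probes and 19057 named genes on the chip. Cfd, which codes for the secreted protease adipsin, had no probe under its symbol and was not analysed here. The genes were chosen by the measured spread of Adipoq over these arrays, together with what is known of adipocytes. The levels of the genes and their relation to other genes over the arrays are therefore described, with no test.

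Distal lung came from 24 female C57BL/6 mice of 12.5 weeks, 6 per group, with 1 array per mouse. Saline controls received saline s.c. and vehicle (2.5% Tween80) p.o., whereas BLM-treated mice received bleomycin s.c. at 50 IE per dose, 3 times per week over 2 weeks, with the same vehicle p.o. EXT5- and EXT9-treated mice received the same BLM regime, with the 5-HT2B receptor antagonist EXT5 or EXT9 p.o. at 30 mg/kg daily in place of vehicle alone. Since every EXT-treated mouse also received BLM, the EXT groups hold the effect of both agents, and no group received an antagonist without BLM.

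Adipocytes store fatty acids as triglyceride in lipid droplets and release them again by lipolysis. They also secrete hormones, the adipokines, of which adiponectin and leptin are the best known, and resistin is another in mice. In the chest, adipose tissue lies in the mediastinum, around the large airways and vessels and at the hilum, and the alveolar region itself holds few adipocytes. Several lipid genes, such as Cidec, Lipe and Pck1, are also expressed outside adipose tissue.

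The arrays fall into 2 runs by the shape of their value distributions. The first run holds 3 saline controls (replicates 1, 3 and 5) and 3 BLM-treated mice (replicates 2, 3 and 5). The second holds the other 6 of these groups plus the complete EXT5 and EXT9 groups. Median linear signals were 110.3 and 103.3 in these runs. Markers of alveolar type 2 cells, the surfactant-secreting cells of the alveolus, summed to signals between 30010 and 56041 on the 24 arrays, so that the defining markers of distal lung were present throughout. In bulk tissue, fewer cells of a type and less RNA per cell cannot be told apart.

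The promoters of Adipoq, which varied most between arrays, and of Lep, whose small maxima fell on 3 of the arrays with high Adipoq, are shown beside that of Plin1, which was near background on all arrays. Each is the RefSeq window (GRCm38.p6) from 250 bases before to 50 bases after a start site of the gene, read along the gene's strand. For Adipoq and Lep this site is the outer end of the gene. For Plin1 it lies inside the gene, whose outer end is at 79732904. Capitals mark matches to AGGTCA (a nuclear receptor core), its direct repeat with 1 base between, which PPARG binds with RXRA, TTGCNNAA (a core of C/EBP sites), TATAAA or CCAAT, each searched on both strands. The windows lie at chr16:23146286-23146585 on the plus strand for Adipoq, chr6:29059971-29060270 on the plus strand for Lep and chr7:79732727-79733026 on the minus strand for Plin1.
Adipoq: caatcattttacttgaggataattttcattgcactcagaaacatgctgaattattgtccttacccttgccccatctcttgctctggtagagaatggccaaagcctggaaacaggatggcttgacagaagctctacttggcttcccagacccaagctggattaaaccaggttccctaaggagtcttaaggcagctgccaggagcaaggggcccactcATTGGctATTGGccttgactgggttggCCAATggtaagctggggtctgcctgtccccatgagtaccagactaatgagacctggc
Lep: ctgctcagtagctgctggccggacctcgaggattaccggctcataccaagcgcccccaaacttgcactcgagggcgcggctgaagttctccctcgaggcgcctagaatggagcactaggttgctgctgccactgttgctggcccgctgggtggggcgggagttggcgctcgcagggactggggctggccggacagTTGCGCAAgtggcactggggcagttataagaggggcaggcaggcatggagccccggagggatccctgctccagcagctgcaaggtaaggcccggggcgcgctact
Plin1: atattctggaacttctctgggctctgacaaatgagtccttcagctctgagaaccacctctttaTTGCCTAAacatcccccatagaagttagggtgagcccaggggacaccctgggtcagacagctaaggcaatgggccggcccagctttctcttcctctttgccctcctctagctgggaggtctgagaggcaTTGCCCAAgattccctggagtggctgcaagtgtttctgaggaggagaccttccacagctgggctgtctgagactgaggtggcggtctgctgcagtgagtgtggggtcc

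The Adipoq window held CCAAT at 3 places, beginning at positions -34, -27 and -7 from the start site, the first 2 of them on the minus strand, and none of the other motifs. CCAAT is common, and 37.4% of 32851 promoter windows held it. Lep held TTGCGCAA at position -55, which reads as TTGCNNAA on both strands, and Plin1 held this motif at positions -187 and -58. TTGCNNAA was found in 10.8% of the windows, AGGTCA in 16.3%, TATAAA in 13.6% and the direct repeat in 0.0396%. Windows were available for all 9 genes, and 5 of them held at least 1 match. The other 2 with matches were Ucp1, with AGGTCA at position -14, and Cidec, with TTGCNNAA at position -198 from the second of its start sites.

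Adipoq codes for adiponectin, a hormone secreted by adipocytes. Its probe (ILMN_2738082) ranged from 6.55 to 9.70 on the log2 scale, an 8.86-fold span in linear signal, which was the widest of the 12 probes. In saline controls the lowest, median and highest log2 signals were 6.57, 6.72 and 9.70, and in BLM-treated mice they were 6.56, 7.15 and 9.06. In EXT5-treated mice they were 6.55, 6.57 and 9.50, and in EXT9-treated mice 6.62, 6.68 and 6.94. All 4 groups overlapped. The level was above 8 on 4 arrays, saline replicate 4 at 9.70, EXT5 replicate 3 at 9.50, BLM replicate 1 at 9.06 and BLM replicate 5 at 8.14. Another 3 arrays lay between 7 and 8, saline replicate 5 at 7.11 and BLM replicates 2 and 6 at 7.05 and 7.25. The remaining 17 lay between 6.55 and 6.94. Adipoq was thus high on single arrays of 3 groups rather than throughout any group, and no EXT9 array passed 7.

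**Figure D1:**
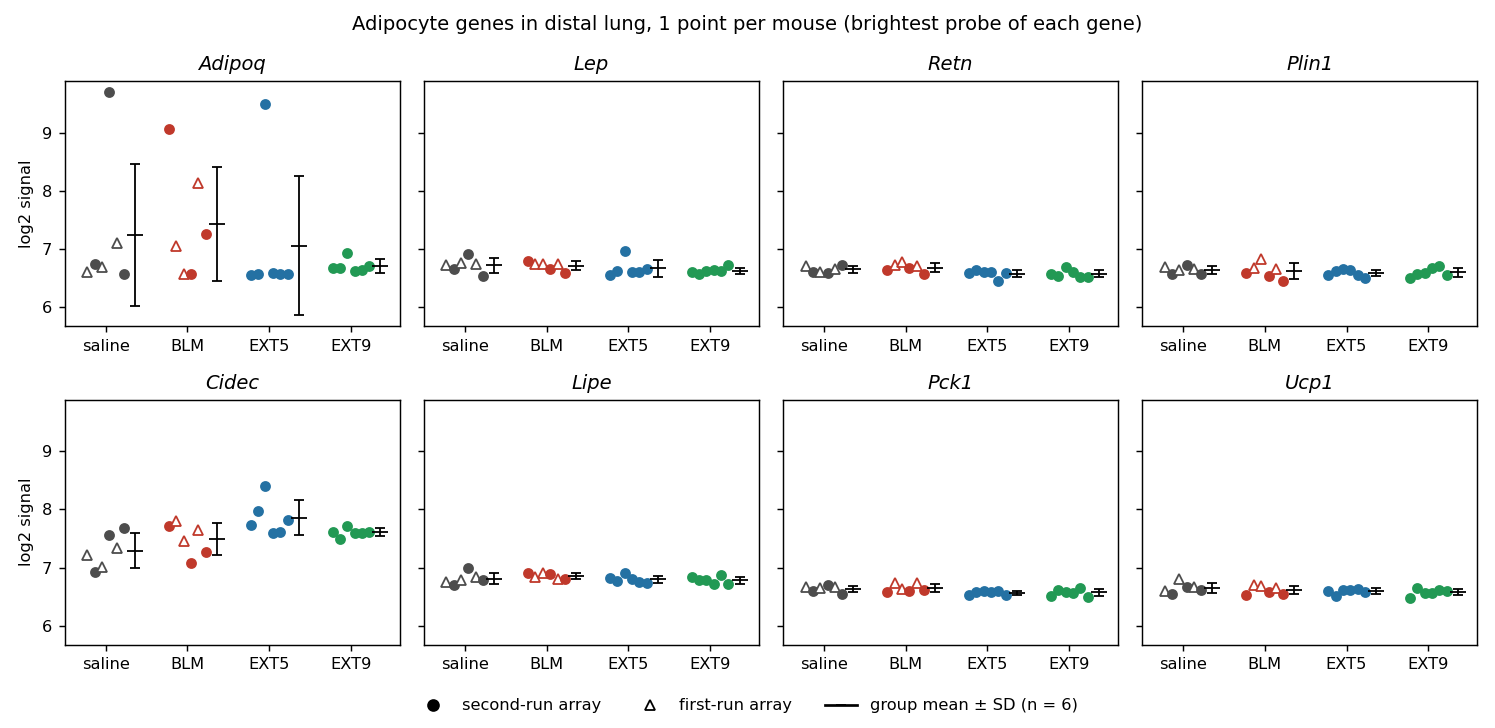
Log2 signal of the brightest probe of each of the 8 adipocyte genes (y axis, same range in every panel) in the 4 groups, 1 point per mouse, with first-run arrays as open triangles, second-run arrays as filled circles and the group mean ± SD (n = 6) as bars. Adipoq lies above 8 on 4 arrays of 3 groups, Cidec is highest in EXT5-treated mice, and the other 6 genes stay between 6.44 and 6.99.

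Group means of Adipoq were 7.24 ± 1.22 (SD, n = 6) in saline controls, 7.44 ± 0.98 in BLM-treated mice, 7.06 ± 1.19 in EXT5-treated mice and 6.71 ± 0.12 in EXT9-treated mice. Each neighbouring pair in this order differed by less than 1 SD of the higher group. The difference on the log2 scale was 0.20 ± 0.53 (SE) for BLM against saline, -0.38 for EXT5 against BLM, -0.73 for EXT9 against BLM and -0.35 for EXT9 against EXT5. With the run as a block, EXT9 against BLM was -1.04 ± 0.59, and within the second run it was -0.92. Without the 4 arrays above 8, the same difference was -0.15. The difference between BLM and saline was 0.45 among first-run arrays and -0.04 among second-run arrays, and the choice of arrays turned its direction. The high arrays occurred in both runs, since 1 of 6 first-run arrays and 3 of 18 second-run arrays passed 8.

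Among the other adipokines, Lep codes for leptin and Retn for resistin. Lep (ILMN_2695964) stayed between 6.54 and 6.97 on all arrays. Its 3 highest levels, 6.97 in EXT5 replicate 3, 6.92 in saline replicate 4 and 6.80 in BLM replicate 1, fell on the 3 arrays where Adipoq was highest. The span of Lep over all arrays was 1.35-fold in linear signal. Lep followed Adipoq over the 24 arrays with a Pearson r of 0.80 and a Spearman rho of 0.56, and without the 4 high-Adipoq arrays r was 0.18. Retn (ILMN_2721016) lay between 6.45 and 6.77, with an r of 0.05.

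Plin1 codes for perilipin 1, which coats the lipid droplet of adipocytes and gates lipolysis. Its 2 probes stayed between 6.44 and 6.82 on all arrays, and neither exceeded 6.72 on the arrays with high Adipoq. Pck1, which codes for the cytosolic phosphoenolpyruvate carboxykinase used for glycerol synthesis in fat and for gluconeogenesis in liver and kidney, lay between 6.47 and 6.84 on its 2 probes. Ucp1, which codes for the uncoupling protein of brown adipocytes, lay between 6.48 and 6.80. The median level of these probes and that of Retn stood between the 12.1 and 31.9 percentile of all probes on an array. These 4 genes were thus in the dimmer part of the chip.

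Lipe codes for hormone-sensitive lipase, which is expressed in steroid-forming tissues as well as in fat. Its 3 probes disagreed. The probe ILMN_2742636 was highest in saline replicate 4, at 6.99, and followed Adipoq with an r of 0.64, or 0.05 without the 4 high arrays. The probe ILMN_3111326 had an r of 0.17 and was not raised in EXT5 replicate 3, where it stood at 6.66. The probe ILMN_2552000 ranged from 6.43 to 6.72 with an r of 0.03. No Lipe probe spanned more than 1.33-fold in linear signal.

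Cidec codes for a protein that joins lipid droplets into larger ones, in fat and in the fatty liver, and it varied in another way than Adipoq. Its levels (ILMN_1222679) ran from 6.92 to 7.68 with a median of 7.27 in saline controls, and from 7.07 to 7.80 with a median of 7.55 in BLM-treated mice. In EXT5-treated mice they ran from 7.60 to 8.40 with a median of 7.78, and in EXT9-treated mice from 7.50 to 7.72 with a median of 7.60. The groups overlapped, and the lowest levels of both EXT groups lay above the median of saline controls. The group means in ascending order were 7.29 ± 0.30 in saline controls, 7.49 ± 0.28 in BLM-treated mice, 7.61 ± 0.07 in EXT9-treated mice and 7.86 ± 0.30 in EXT5-treated mice (SD, n = 6). Cidec was 0.57 ± 0.14 higher (log2, SE) in EXT5-treated mice than in saline controls, 0.59 ± 0.16 with the run as a block and 0.47 within the second run. EXT9 against saline was 0.32 ± 0.14, and EXT9 against EXT5 was -0.25 ± 0.14. The neighbours saline and BLM, BLM and EXT9, and EXT9 and EXT5 each lay within 1 SD of the more variable group. The highest single level, 8.40, fell on EXT5 replicate 3, which also had high Adipoq, whereas saline replicate 4 with the highest Adipoq had 7.56. The r between both genes was 0.38, and it was 0.67 for the deviations left after group and run were fitted. The Spearman rho was 0.02, and without the 4 high-Adipoq arrays the r was -0.15.

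Of the 12 probes, 4 passed the filter that keeps the brighter 50% of probes (a mean log2 signal above 6.71), namely Adipoq, Cidec and 2 of Lipe. Adipoq passed through its high arrays, since 17 arrays had it below 7. Over the 8 measured genes, taken by their brightest probes, the median difference in the 6 comparisons stayed close to 0, from -0.08 to 0.04 over all fits that left out a single array. Since most of the 8 genes were near background, this median does not show whether they moved together.

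The genes whose pattern over the 24 arrays was most like that of Adipoq were found by Pearson r among 22639 other tested probes, over which the median r was -0.04 and the 99th percentile was 0.53. The r values are descriptions with no test, and all points share the runs and their normalization. The closest gene was Car3, with an r of 0.98 (Spearman rho 0.83). Car3 codes for carbonic anhydrase 3, an abundant protein of adipocytes and of slow skeletal muscle in rodents. Its log2 signal was 8.93 in saline replicate 4, 8.93 in EXT5 replicate 3, 8.24 in BLM replicate 1 and 7.24 in BLM replicate 5, and on the other 20 arrays it did not exceed 6.81. Without the 4 arrays its r was 0.88, over levels from 6.44 to 6.81 only. The median level of Car3 stood at the 14.0 percentile of all probes on an array. Like Adipoq, it thus passed the filter through its high arrays. Thrsp (r 0.94), a nuclear protein that promotes lipogenesis, reached 8.08, 7.62 and 7.62 on the first 3 of these arrays. Car3 and Thrsp belong to a list of white adipocyte genes used below.

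The other 8 of the 10 closest genes were in none of the adipocyte lists used here. Mb (r 0.92), Sln (r 0.91) and Myoz2 (r 0.91) code for myoglobin, the calcium pump inhibitor sarcolipin and a sarcomere protein, and are genes of striated muscle. Mb reached 10.03 in BLM replicate 1, 9.51 in saline replicate 4, 8.83 in EXT5 replicate 3 and 8.65 in BLM replicate 5, whereas the lowest array had 6.53. Scgb3a1 (r 0.91), a secretoglobin of the mucous and secretory cells of larger airways, was measured by 2 probes. The probe ILMN_2658200 reached 8.98 in BLM replicate 1, and the brighter probe ILMN_2638082 (r 0.86) reached 11.94 in saline replicate 4. Scgb3a1 is also on a list of club cell markers, on which Scgb1a1 had an r of -0.26 and Cyp2f2 of 0.13. The summed signal of that list had an r of 0.15 and a rho of 0.46 with Adipoq. Orm1 (r 0.93) codes for an acute phase plasma protein, and Cyp4a12b (r 0.92) for a cytochrome P450 of fatty acid hydroxylation. Tmem45b (r 0.97) and Gtsf1l (r 0.92) completed the 10. The median levels of Tmem45b and Gtsf1l stood at the 15.7 and 34.8 percentile. Those of Cyp4a12b and the Scgb3a1 probe ILMN_2658200 stood at the 39.7 and 38.0 percentile. These probes too passed the filter through their high arrays. An unnamed probe, ILMN_2835423, had an r of 0.96 and ranged from 6.62 to 12.49, and its r without the 4 high arrays was 0.95. For most of the named genes the r fell further without these arrays. It was 0.48 for Mb, 0.50 for Sln, 0.46 for Myoz2 and 0.45 for Thrsp. It was 0.45 for Orm1, 0.47 for Gtsf1l and 0.51 for Tmem45b, but 0.75 for Cyp4a12b and 0.81 for the Scgb3a1 probe ILMN_2658200.

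**Figure D2:**
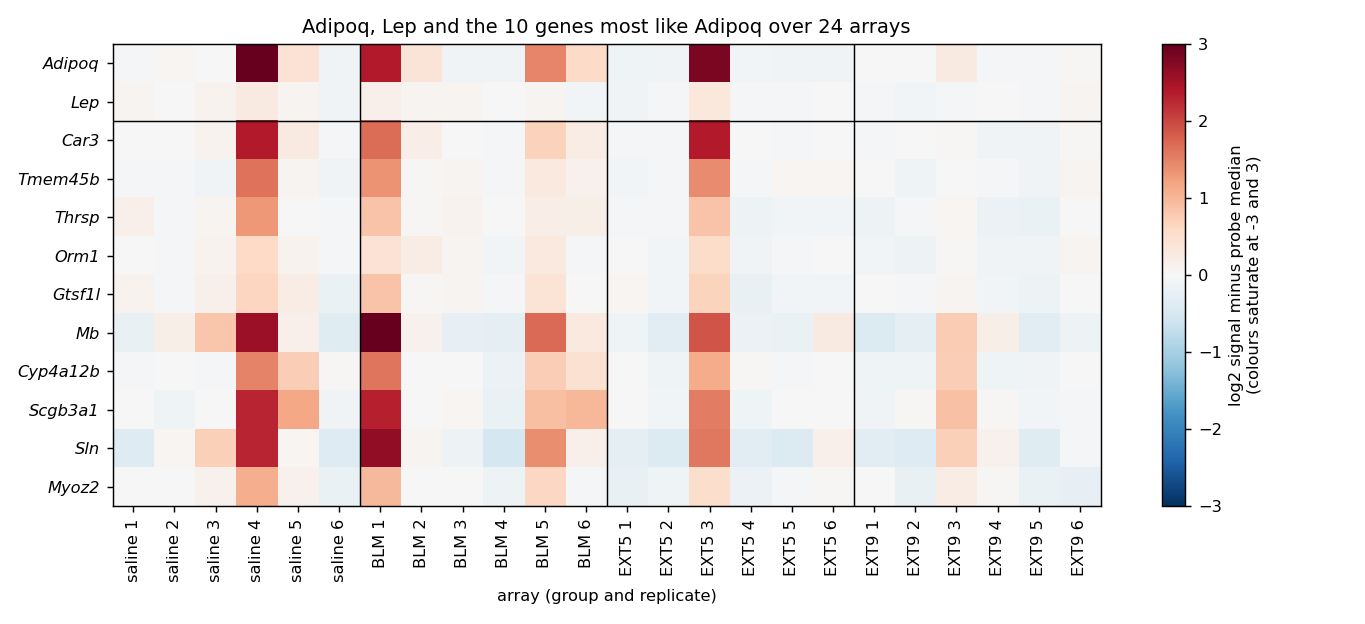
Log2 signal minus the probe's median over 24 arrays, as colour, for Adipoq, Lep and the 10 named genes most like Adipoq (rows), with the arrays of the 4 groups in columns. Saline 4, BLM 1 and EXT5 3 are red in nearly all rows, with Car3 at 8.93, 8.24 and 8.93 log2 signal. BLM 5 is paler in most rows, with Car3 at 7.24, Thrsp at 6.97 and Tmem45b at 6.86. Lep changes little.

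In all, 57 probes of 44 named genes, 3 of the probes unnamed, had an r above 0.8, and on 42 of these probes each of the 4 high-Adipoq arrays was above each of the other 20. BLM replicate 1 was the highest array for 33 of the 57 probes, saline replicate 4 for 20 and EXT5 replicate 3 for 4. The widest spans among them were those of Bpifa1 and Bpifb1, secreted proteins of the upper and large airways, which were picked out after their values were seen. Bpifa1 was at 13.10 in BLM replicate 1, 12.90 in EXT5 replicate 3, 12.65 in saline replicate 4 and 11.81 in BLM replicate 5. It was also at 11.52 in saline replicate 5 and 10.10 in EXT9 replicate 3, and as low as 6.56 elsewhere. Since the 57 probes were selected for their likeness to Adipoq, high levels on these arrays are what the selection asked for.

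Lists of marker genes for 18 other tissues and cell types were summed in linear signal on each array and set against Adipoq. The relations are described without a test, since the spread of Adipoq over these arrays had chosen the genes. The highest r of the 18 was that of cardiac muscle, whose cells in mice line the pulmonary veins as well as the heart. The total of the 8 cardiac genes was 10697 in saline replicate 4, 10888 in BLM replicate 1, 6110 in BLM replicate 5 and 5008 in EXT5 replicate 3, and 1609 to 4901 on the other 20 arrays. The log2 total had an r of 0.81 with Adipoq and a rho of 0.77. The r was 0.81 without the 2 arrays farthest from the median of Adipoq, 0.59 without all 4, 0.82 among first-run arrays and 0.86 among second-run arrays. All 8 cardiac genes measured had an r above 0.5, from Sln at 0.91 and Myh6 at 0.87 to Actc1 at 0.52. Actc1 also had the highest mean log2 signal of the 8, at 10.56, and so weighs heavily in the total. By group the totals ran from 1847 to 10697 in saline controls and 2755 to 10888 in BLM-treated mice. They ran from 1609 to 5008 in EXT5-treated mice and 1942 to 3532 in EXT9-treated mice. On the log2 scale Actc1 ran from 9.75 to 11.97 in saline controls and 10.80 to 11.51 in BLM-treated mice. It ran from 9.08 to 10.62 under EXT5 and 9.76 to 10.54 under EXT9. The smooth muscle marker Actg2 ran at similar levels, 9.64 to 11.65, 10.56 to 11.11, 9.13 to 10.37 and 9.57 to 10.32 in this order. The group totals are therefore not read as a level of cardiac muscle alone. Myl7, the atrial myosin light chain, reached 10.19 in saline replicate 4, and Nppa, the atrial natriuretic peptide, was raised on only BLM replicate 1 (9.77) and EXT5 replicate 3 (7.89). The part of this tissue in the level of Adipoq was not tested.

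**Figure D3:**
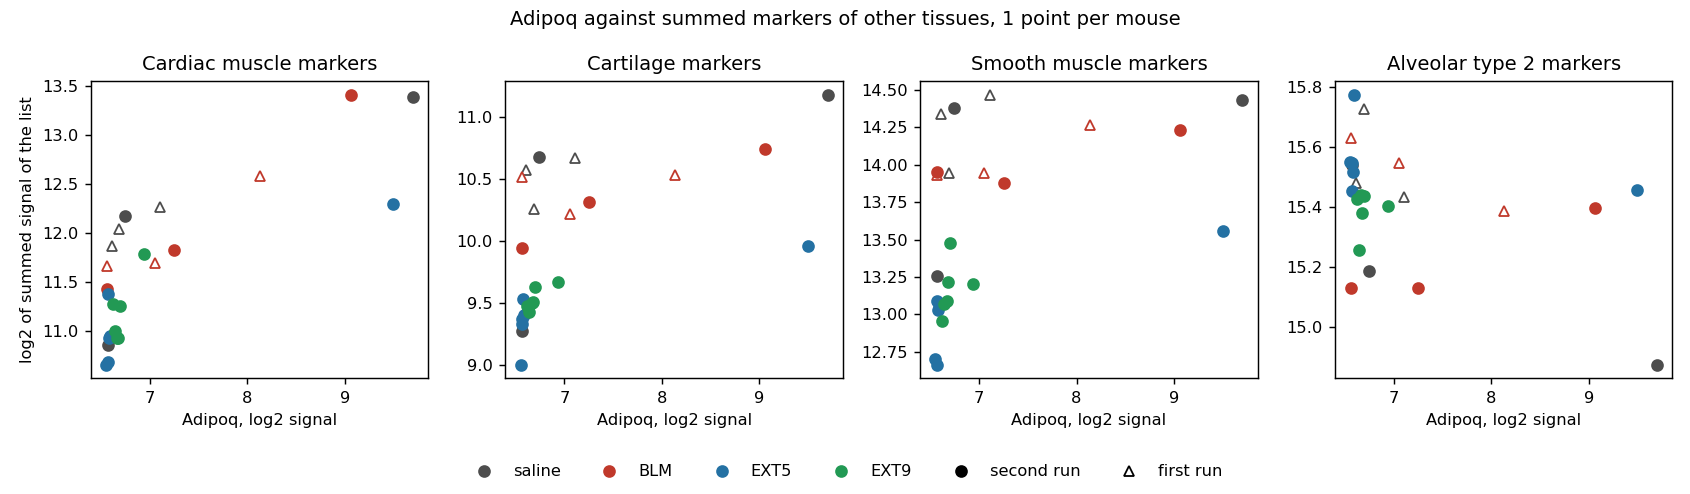
Log2 of the summed linear signal of 4 marker lists (y axes, each with its own range) against the log2 signal of Adipoq (x axis), 1 point per mouse, coloured by group, with first-run arrays as open triangles. The cardiac total is above 5008 on the 4 arrays with Adipoq above 8 and at most 4901 on the others, and the alveolar type 2 total is lowest, at 30010, in saline 4.

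Skeletal muscle markers had an r of 0.54 and a rho of 0.42, with totals between 855 and 1004 on all arrays, and 3 of its 8 genes, Ckm, Tnnt3 and Atp2a1, had an r above 0.5. Acta1, a defining gene of skeletal muscle, had an r of 0.03. After group and run were fitted, the r of the skeletal muscle list was 0.71. Cartilage markers, which mark the larger airways, had an r of 0.57 and a rho of 0.67. This rested on Chad, the 1 of its 4 genes that was above the filter, and not on Acan or Col2a1. Within the first run the cartilage r was 0.16, within the second it was 0.72, and after group and run were fitted it was 0.72. Smooth muscle markers had a rho of 0.56 and an r of 0.46. This r was 0.63 after group and run were fitted, and 0.34 and 0.61 within the runs. Ciliated cell markers had a rho of 0.58 and an r of 0.45. Their r was 0.61 after group and run were fitted, and 0.13 and 0.63 within the runs. Ciliated cell totals also ran lower in the EXT groups, at 4539 to 11883 in saline controls, 6069 to 10523 in BLM-treated mice, 3452 to 6364 in EXT5-treated mice and 4743 to 5951 in EXT9-treated mice. In the other direction, alveolar type 1 markers had a rho of -0.60 but an r of -0.23, which was -0.25 after group and run were fitted and -0.12 and -0.27 within the runs. Their totals ran from 14763 to 27937 in saline controls, 25293 to 32257 in BLM mice, 29073 to 32326 in EXT5-treated mice and 27697 to 31708 in EXT9-treated mice. Mesothelium markers had a rho of -0.58 and an r of -0.42, which was -0.34 after group and run were fitted and -0.71 and -0.38 within the runs. Alveolar type 2 markers had a rho of -0.48 and an r of -0.43, which was -0.41 after group and run were fitted and -0.69 and -0.41 within the runs.

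Further genes of the adipocyte were taken from 3 lists, of white adipocyte genes (20), brown adipocyte genes (14) and genes of lipid synthesis and turnover (18). Of the 52 genes, 49 had a named probe and 39 passed the filter. These genes were tested with limma over all tested probes, and a gene counted as called where its p, adjusted after Benjamini-Hochberg, was under 0.05. Several are shared with muscle: Cox7a1, Cox8b and Fabp3 are also expressed in the heart, Slc2a4 in heart and skeletal muscle, and Aoc3 in smooth muscle.

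BLM against saline gave no called list gene, beside 0.137% called among all tested probes. At an unadjusted p under 0.05 there was 1 list gene, Mgll, and the share of all probes at that unadjusted threshold is not given here. The list median was -0.01, and that of all probes was 0 to the second decimal. EXT5 against saline gave 5 called genes of 39, all lower, beside 14.6% called over all probes (11.1% lower and 3.42% higher). EXT9 against saline gave 9 called genes, 8 lower and 1 higher, beside 23.1% over all probes (17.6% lower and 5.49% higher). A block for the run changed the EXT5 calls to 1 lower (5.63% of all probes) and 1 higher (5.32%). It changed the EXT9 calls to 3 lower (8.37%) and 2 higher (7.78%). The list medians were -0.07 for EXT5 and -0.11 for EXT9, beside -0.05 and -0.06 over all probes.

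EXT5 against BLM gave 4 called genes, all lower, beside 7.28% of all probes, 6.28% being lower. EXT9 against BLM gave 3 lower and 1 higher, beside 10.1% of all probes, 8.35% being lower and 1.7% higher. A block for the run left 2 lower calls under EXT5 (1.94% of all probes) and 1 lower (2.32%) and 1 higher (2.79%) under EXT9. By list, EXT5 against saline (14.6% called over all probes) had 2 of 15 white adipocyte genes called, 3 of 9 brown adipocyte genes and 0 of 15 lipid genes, and EXT9 against saline (23.1%) had 4, 3 and 2. Once the run was blocked, the counts of brown adipocyte genes fell to 0 in both, those of white adipocyte genes to 1 and 2, and lipid genes had 1 and 3.

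Aoc3 codes for an amine oxidase of the cell surface that is abundant in adipocytes and smooth muscle, and it had the largest called change of the lists. Its lowest, median and highest log2 signals were 8.21, 9.35 and 9.93 in saline controls and 8.82, 9.10 and 9.58 in BLM-treated mice. They were 7.61, 7.84 and 8.97 in EXT5-treated mice and 7.58, 7.91 and 8.27 in EXT9-treated mice. All EXT9 arrays lay below all BLM arrays, whereas EXT5 replicate 3, the array with high Adipoq, lay among the BLM arrays, and saline replicate 6 lay among the EXT arrays. The change was -1.24 ± 0.24 (log2, SE) for EXT5 against saline (limma, adjusted p = 0.0014) and -1.32 ± 0.24 for EXT9 (adjusted p = 0.00076). Against BLM it was -1.17 (limma, adjusted p = 0.0086) and -1.25 (adjusted p = 0.0048). Within the second run alone the calls against BLM were lost (limma, adjusted p = 0.093 and 0.059), and those against saline held. Summed smooth muscle markers moved with it, at 9795 to 22699 in saline controls, 15078 to 19671 in BLM-treated mice, 6482 to 12041 in EXT5-treated mice and 7932 to 11410 in EXT9-treated mice. The part of smooth muscle in the level of Aoc3 was not tested.

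Plin4, a perilipin of small lipid droplets, fell in EXT9-treated mice against saline controls, with a difference of -0.66 ± 0.19 (limma, adjusted p = 0.018), a call that was lost within the second run alone (adjusted p = 0.092). EXT5 replicate 3 had 8.16 and saline replicate 4 had 8.21, and the other EXT5 arrays stayed at or below 7.06. Slc2a4, the insulin-responsive glucose transporter, was lower under EXT9 than in saline controls, with a difference of -0.17 (limma, adjusted p = 0.019), a call lost with the run as a block (adjusted p = 0.054). The Slc2a4 probe was dim too, between 6.62 and 6.96 on all arrays, with a mean of 6.79 beside the filter at 6.71. Rbp4, the plasma carrier of retinol, was called lower against saline under EXT5 and EXT9 (limma, adjusted p = 0.046 and 0.029), and both calls were lost with the run as a block. In EXT5-treated mice the call of Rbp4 was also lost on leaving out any of 10 of the 12 arrays compared.

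Cidea, a lipid droplet protein of brown fat, was -0.43 under EXT5 and -0.44 under EXT9 against saline (limma, adjusted p = 0.026 and 0.015), and -0.40 and -0.41 once the run was blocked (adjusted p = 0.08 and 0.0504). Its highest level, 7.97, was that of saline replicate 4. Cox8b, a muscle and brown fat subunit of cytochrome c oxidase, was -0.52 under EXT9 against saline (limma, adjusted p = 0.023, or 0.0505 once the run was blocked), and the call was lost without saline replicate 4, where it reached 9.02. Ppargc1a, a coactivator of mitochondrial genes, and Slc27a2, a fatty acid transporter, were called lower in EXT5-treated mice against saline and against BLM, and Ppargc1a also in EXT9-treated mice, but each of these calls was lost with the run as a block. Cox7a1, whose r with Adipoq was 0.83 over all arrays and -0.10 without the 4 high-Adipoq arrays, was called in no comparison.

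**Figure D4:**
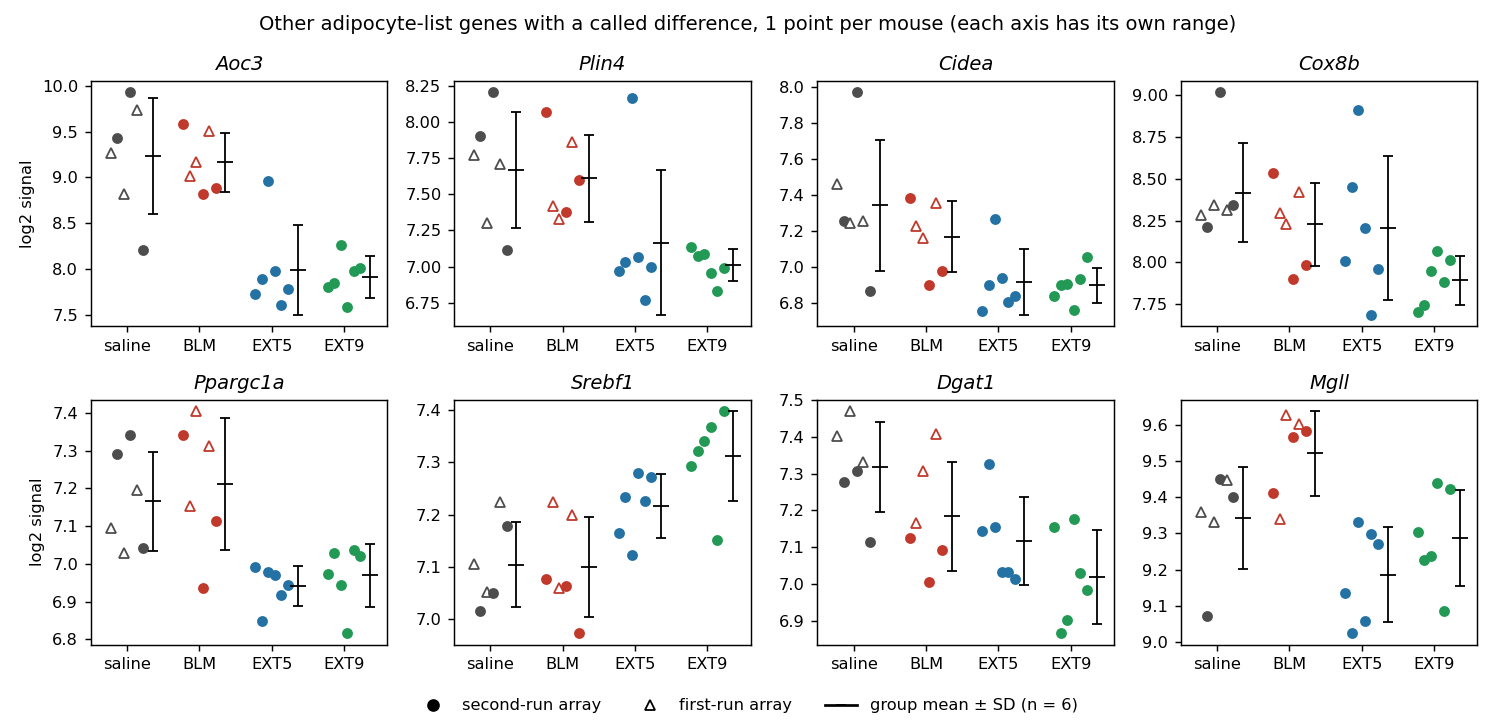
Log2 signal (y axes, each with its own range) of 8 other adipocyte-list genes with a called difference, in the 4 groups, 1 point per mouse, with first-run arrays as open triangles and the group mean ± SD (n = 6) as bars. Aoc3 is lower in both EXT groups, EXT5 3 with 8.97 being the exception, and Srebf1 is highest in EXT9-treated mice.

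Srebf1, the transcription factor of lipid synthesis, was the only called list gene that rose, in EXT9-treated mice by 0.21 ± 0.05 against saline (limma, adjusted p = 0.0053) and 0.21 against BLM (adjusted p = 0.014). Its EXT9 levels ran from 7.15 to 7.40, and those of saline controls from 7.02 to 7.22. The calls held with the run as a block and in the second run alone. Dgat1, which makes triglyceride, was -0.30 in EXT9-treated mice against saline (limma, adjusted p = 0.006, or 0.049 once the run was blocked), and its call was lost in the second run alone (adjusted p = 0.11). Mgll, which cleaves the last fatty acid from monoacylglycerol, was -0.33 under EXT5 against BLM (limma, adjusted p = 0.011, or 0.035 once the run was blocked) and -0.24 under EXT9 (adjusted p = 0.046, or 0.13). Only with the block, Cd36 was called higher in EXT9-treated mice (0.21, limma, adjusted p = 0.012) and Scd1 in EXT5-treated mice (0.52, adjusted p = 0.011), both against saline. The Cd36 probe was dim, between 6.54 and 6.95 on all arrays, with a mean of 6.74 beside the filter at 6.71. Fabp4, a fatty acid binding protein of adipocytes, was dim, with its probe below the filter.

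EXT9 against EXT5, given at the same dose over the same time, compared 1 pair of compounds. No list gene was called, beside 0.146% called over all probes, and the smallest adjusted p of the list was 0.40 (limma). At an unadjusted p under 0.05 there were 5 list genes. The share of all probes at that unadjusted threshold is not given here, so the 5 are not read as a result. The differences ran from -0.40 in Car3 to 0.15 in Cd36. For Aoc3 the difference was -0.08 with a 95% interval from -0.58 to 0.42, for Srebf1 0.10 with an interval from -0.01 to 0.20, and for Cox8b -0.31 with an interval from -0.65 to 0.03. The interval of Car3, which was high in EXT5 replicate 3, was the widest of the 39, at 1.70 on the log2 scale.

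Among the list genes outside the 9, those with the highest r to Adipoq after Car3 and Thrsp were Adig (0.91), Cox7a1 (0.83), Elovl6 (0.82) and Sncg (0.80), which are named here after their values were seen. Adig, the adipogenesis-associated adipogenin, reached 7.65 in saline replicate 4, 7.61 in BLM replicate 1 and 7.54 in EXT5 replicate 3, and did not exceed 7.13 elsewhere. Elovl6, which lengthens fatty acids, reached 8.65 in saline replicate 4 and 7.95 in BLM replicate 1 but 7.36 in EXT5 replicate 3. Car3, Thrsp and Adig were called in no comparison (limma). For Car3, EXT9 against BLM differed by -0.49 ± 0.41 (limma, adjusted p = 0.45). In the lipid list the r with Adipoq ranged from -0.33 for Srebf1 to 0.82 for Elovl6. It was 0.72 for Dgat2, which makes triglyceride, with 0.84 after group and run were fitted, and 0.32 for Me1, which supplies reducing power to lipid synthesis, with 0.68. Without the 4 arrays with Adipoq above 8, the r was 0.29 for Elovl6, 0.09 for Dgat2 and 0.05 for Me1. It was then 0.42 for Adig, -0.10 for Cox7a1 and 0.56 for Sncg. Over all arrays it was 0.14 for the adipogenic regulator Pparg, 0.10 for the fatty acid synthase Fasn and 0.11 for the desaturase Scd1.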

How the data were processed

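RNA from distal lung of 24 mice was hybridised to Illumina MouseWG-6 v2 chips. The values are linear intensity, quantile normalized by the authors and deposited without a log. Their software and background correction are not given in the sources used here. Log2 was taken with a pseudocount of 0. The runs were inferred from the sorted values, and the design text counts 5 remeasured samples where 6 saline and BLM arrays share the second distribution. A second table was not used, because the names of its 48 signal and detection columns match no label. In 602 rows, 5 stretches in the order of that table, first-run values appear displaced, and 0 of the 12 member probes lie there.

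The 50% of probes with the higher mean were tested (22640 probes of 12057 genes). Of all probes, 34885 carry 1 symbol, 18 several and 10378 none. Group means of all 24 arrays were fitted by limma (version 3.58.1, under R 4.3.3), with adjustment over all tested probes. On simulated data, 199 of 200 changed probes were recovered for BLM against saline, with 9 false calls. The brightest probe stood for a listed gene, and SEs are from the fit. Named are the 9 genes, listed genes called in a comparison (at most 5 with the smallest p in each, and the others in passing) and the 10 genes most like Adipoq. The genes, lists and comparisons were chosen with earlier results of these data known. Alternatives were median centring, joint quantile normalization, an offset of 32, no filter, array weights, trend and robust options, the run or replicate number as a block, single runs, 2 groups alone, the mean of all probes, displaced rows left out and single arrays left out. Leaving out the 4 high-Adipoq arrays was added after seeing the data. Promoter windows are from RefSeq (GRCm38.p6), and probes have no positions here. The number of arrays limits the precision.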

Additional observations from a re-analysis of the deposited data

Results flagged for a closer look

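On 24 of 88 combinations of a probe and a group, 1 array stood far from the other 5, by its gap to the nearest array as a share of the group's range. Of these, 19 were among 40 combinations of the genes most like Adipoq, which were chosen for sharing its high arrays. The other 5 were among 48 of the member probes, and Adipoq was itself chosen for its spread over these arrays. Chance alone gives this in about 1 of 20 groups, but after such a choice the counts cannot be set against that rate. The array that stood apart was EXT5 replicate 3 in 12 cases, saline replicate 4 in 6, EXT9 replicate 3 in 3, BLM replicate 1 in 2 and EXT5 replicate 5 in 1.

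For Adipoq the share was 0.987 in EXT5-treated mice, 0.828 in saline controls and 0.753 in EXT9-treated mice, where replicate 3 had 6.94. Lep had 0.733 in EXT5-treated mice, in EXT5 replicate 3. Retn had 0.69 there, where EXT5 replicate 5 was the lowest, at 6.45. Car3 had 0.982 in EXT5-treated mice and 0.876 in saline controls. Tmem45b had 0.896, 0.895 and 0.759 and Thrsp 0.89, 0.861 and 0.752 in EXT5-treated mice, saline controls and BLM-treated mice. Orm1 had 0.809 in EXT5-treated mice and 0.763 in saline controls, and Myoz2 0.642 and 0.748. In EXT5-treated mice alone, Mb had 0.733, Sln 0.724 and Gtsf1l 0.676. Cyp4a12b had 0.859 in EXT5-treated and 0.833 in EXT9-treated mice, and Scgb3a1 0.923 and 0.853, the EXT9 array being replicate 3 for both.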

How the results depend on the processing

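Of the calls in the adipocyte lists, 5 were found for EXT5 against saline, 9 for EXT9 against saline, 4 for EXT5 against BLM and 4 for EXT9 against BLM. With the run as a block there were 2, 5, 2 and 2, and on the second-run arrays alone 1, 2, 0 and 1. Array weights gave 12 (EXT5 against saline), 15 (EXT9 against saline) and 7 (EXT9 against BLM). Apart from the run block, the share called over all probes is not given for the settings here and below. Changes in these counts are therefore not read as a result about the list genes. Joint quantile normalization gave 2 in both comparisons against BLM, and median centring gave 2 for EXT9 against BLM. With the 2 groups alone, EXT5 against saline gave 2. Without the 4 high-Adipoq arrays, EXT5 against BLM gave 1 and EXT9 against BLM 2. No called gene changed its direction under the settings where direction was checked. The fits of 2 groups alone and without the 4 high-Adipoq arrays were not checked for direction. The cause of the changed counts was not tested.

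With 1 array left out, the counts ran from 2 to 8 (EXT5 against saline), 7 to 11 (EXT9 against saline), 2 to 7 (EXT5 against BLM) and 2 to 4 (EXT9 against BLM), and stayed at 0 for BLM against saline and EXT9 against EXT5. For EXT5 against saline the count was 2 without saline replicate 4 or 5 or EXT5 replicate 5, 3 without saline replicate 1 or EXT5 replicate 1 or 6, and 8 without saline replicate 6 or EXT5 replicate 3. For EXT5 against BLM it was 2 without BLM replicate 5 or EXT5 replicate 2 and 7 without EXT5 replicate 3. For EXT9 against BLM it was 2 without BLM replicate 3 or 5 or EXT9 replicate 3. The median difference of the 8 genes ranged from 0.01 to 0.04 (BLM against saline), -0.07 to -0.02 and -0.08 to -0.04 (EXT5 and EXT9 against saline), -0.08 to -0.04 and -0.08 to -0.06 (EXT5 and EXT9 against BLM) and -0.03 to 0.01 (EXT9 against EXT5). Of the 10 genes most like Adipoq, 6 were among the first 10 after group and run were fitted, and 2 without the 2 arrays farthest from the median of Adipoq or without all 4 high arrays.

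Replicate numbers do not pair these mice. Deviations of same-numbered arrays correlated between -0.64 and 0.75 over 36 pairs (median -0.04), with 11 above 0.1. With the replicate block the list gave 5 and 8 calls (EXT5 and EXT9 against saline), 3 and 4 (EXT5 and EXT9 against BLM) and 0 in the other 2 comparisons, so that no count moved by over 1.5 times. Probes near background limit Plin1, Retn, Ucp1, Pck1 and most of Lep and Lipe, where any change may be understated or not seen.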
